A study of Mus musculus with 2 samples.

Results

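Interval-poor megabases are fixed 1 Mb windows of an autosome that hold 1 to 9 TCF1 intervals, with each interval assigned to the window in which it starts. On mm9, 97 of 2416 autosomal windows with any interval met this rule (4.01%), and they held 722 of the 101290 autosomal intervals (0.713%). The whole list held 104683 intervals. The windows in which the lists of chromosomes 9, 12, 13 and 14 end are among the 97. They were counted as full windows, although the chromosome may end inside them. Chromosome lengths were not used. The windows were chosen by their interval count, so the sparseness itself is described and not tested. The list came from 1 chromatin immunoprecipitation library with an antibody against TCF1. It was made from γδ thymocytes of C57BL/6 mice of the genotype TCRbeta KO, Sox13tg+ and Sox13 ECFP KI/+, sorted as gd+, CD24+ and CFPlo/-. The input library made from cells with the same alleles had no processed file among those used and was not analysed here. The sources used here give neither the promoter of the Sox13 transgene nor how many mice were pooled. With 1 library and no replicate no p-value is given, and the depth is unknown.

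TCF1, the product of Tcf7, is an HMG-box factor that binds short DNA motifs at enhancers and promoters and helps set up the T cell programme in the thymus. Gene deserts are long stretches of a chromosome with few or no protein-coding genes. Some of them lie beside genes for nerve cell adhesion proteins and receptors, whose introns can be very long. Olfactory and vomeronasal receptor genes, which sensory neurons of the nose use to detect odours and pheromones, form other large blocks that are silent in most tissues.

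Most interval-poor windows had no interval-poor neighbour, and the longest stretch spanned 2 windows, or 3 with the grid shifted by 500 kb. The 97 windows formed 86 stretches, of which 75 were single windows and 11 were pairs of neighbours. Single windows made up 77.3% of the interval-poor windows. Counts just under the limit were common, with 57 of 97 holding 8 or 9 intervals. The 5 emptiest windows held 1 to 4, and the one with 1 is where the list of chromosome 9 ends. With each window counted as 1 Mb, intervals covered 0.182% of the bases of interval-poor windows, against 0.753% in windows with 20 to 39 intervals.

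**Figure D1:**
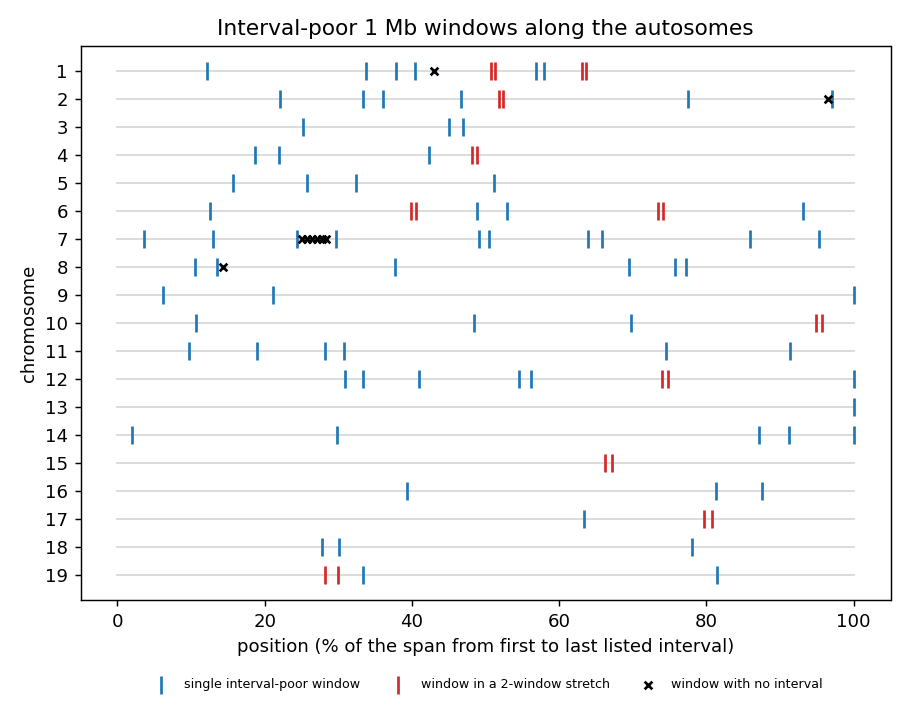
Positions of the 97 interval-poor windows along the 19 autosomes (y axis), as percent of the span from the first to the last listed interval (x axis). Windows in the 11 pairs are red, single ones are blue and the 9 windows with no interval are crosses; windows whose centre falls past the last interval are drawn at 100%.

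Each of the 19 autosomes had at least 1 interval-poor window, and their share did not follow the density of the chromosome in a simple way. Chromosome 7 had the highest share, 10 of 144 windows (6.94%), next to chromosome 19 with 4 of 59 (6.78%) and chromosome 12 with 8 of 119 (6.72%). Chromosome 11, with 63.5 intervals per Mb over its listed span, still had 6 of 119 windows in this class (5.04%). Chromosome 3, with 30.9 per Mb, had 3 of 157 (1.91%), and chromosome 13, with 32.7 per Mb, had 1 of 118 (0.847%). Sparse megabases were thus present on the chromosome with the most intervals per Mb and rare on some of the sparsest. Along the span from the first to the last interval, successive parts of 20% held 13, 25, 23, 19 and 17 interval-poor windows, so they were not gathered at either end.

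The 11 pairs are described in order of how few intervals they held. For 10 of them a gene or desert is named, with no count of how often such genes or deserts lie in other windows, so nothing particular to sparse megabases is read from the names. The places of these genes on mm9 are general knowledge of the mouse genome and were not read from an annotation of that build. The RefSeq gene table for GRCm38.p6 was used only to check names, chromosomes and gene order. It listed all 28 genes named for a window or desert on the stated chromosome, and each of the 7 neighbouring pairs named as the borders of a desert was consecutive among its protein-coding genes.

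The sparsest pair of windows, on chromosome 15 from 69000001 to 71000000, held 12 intervals in the desert between Khdrbs3, which encodes an RNA-binding protein, and Fam135b. Their median height was 16.5, where height is the deposited score per 50 bp of interval width. The highest interval in it, from 69913101 to 69913600, had a height of 32.0. No interval of that stretch therefore reached 34.4, the median height of all autosomal intervals.

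On chromosome 1 there were 2 such stretches with 13 intervals each. The first, from 101000001 to 103000000, lay at Cntnap5b, which encodes a contactin-associated cell adhesion protein. Its median height was 10.2 and its highest interval, from 102648701 to 102649100, reached 30.3. The other, from 125000001 to 127000000, lay at Dpp10, which encodes a protein that binds potassium channels. Its median height was 11.6, with 47.3 at its highest interval, from 125199151 to 125199350.

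A stretch on chromosome 12 from 90000001 to 92000000 held 13 intervals at Nrxn3, which encodes the synaptic adhesion protein neurexin 3. The median height was 17.7, and the interval from 90498601 to 90498950 reached 63.5. On chromosome 6, 14 intervals between 110000001 and 112000000 lay at Grm7, a metabotropic glutamate receptor gene. Their median height was 11.2, and the interval from 110595501 to 110596100 reached 51.9. These 2 stretches thus each held at least 1 interval well above the autosomal median among mostly low ones.

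Of the next 5 stretches, 4 also held intervals above the autosomal median. The exception was on chromosome 2 from 95000001 to 97000000, where 15 intervals lay in and beside the desert between Api5 and Lrrc4c, which encodes a synaptic adhesion protein, and none was higher than 28.3. Chromosome 4 from 76000001 to 78000000 held 15 at Ptprd, a receptor tyrosine phosphatase gene, with heights up to 56.9. Chromosome 19 from 19000001 to 21000000 held 16 in and around the desert between Rorb, a nuclear receptor gene, and Anxa1, with heights up to 57.8. Chromosome 17 from 76000001 to 78000000 held 17 between Fam98a and Crim1, with heights up to 45.3. Chromosome 6 from 61000001 to 63000000 held 18 at Ccser1, with heights up to 53.9. An 11th pair, on chromosome 10 from 123000001 to 125000000, also held 18 intervals and came after the pair on chromosome 6 by chromosome order alone. No gene is named for it. It had a median height of 28.9, the highest median among the 11 pairs.

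Single interval-poor windows were also found at other long genes, picked here because their mm9 place is well known and not by a rule. The window at Lsamp (chromosome 16, 40000001 to 41000000), which encodes a neuronal surface protein, held 3 intervals with heights from 5 to 14.2. At Erbb4 (chromosome 1, 68000001 to 69000000), a neuregulin receptor gene, the 7 intervals ran from 7.20 to 17.1. At Macrod2 (chromosome 2, 141000001 to 142000000) the 8 intervals ran from 5 to 27.7. No interval in these 3 windows reached the autosomal median.

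Windows at Opcml, Csmd1 and Tenm2, genes of neuronal adhesion or complement-like surface proteins, differed from those in having higher intervals as well. Opcml (chromosome 9, 28000001 to 29000000) had 5 intervals with heights from 5.5 to 65.6. Csmd1 (chromosome 8, 16000001 to 17000000) had 9, from 5.83 to 68.9. Tenm2 (chromosome 11, 36000001 to 37000000) had 7, from 9.50 to 45.8, and Lrrtm4 (chromosome 6, 80000001 to 81000000) had 6, from 7 to 26.8.

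Deserts also appeared as broken series of sparse windows. Between Celf4 and Pik3c3 on chromosome 18, the windows from 27000001 to 28000000 and from 29000001 to 30000000 held 4 and 5 intervals. On chromosome 8 a sparse window lay on either side of the cadherin gene Cdh8. The one from 100000001 to 101000000, towards Got2, held 7 intervals and the one from 102000001 to 103000000, towards Cdh11, held 6.

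Some windows in blocks of sensory receptor genes were also interval-poor. Windows of such blocks elsewhere in the genome were not counted, so nothing particular to sparse megabases is read from these. Other families on the planned list, among them immunoglobulin variable segments and serpins, are not named at any window, and their windows were not counted either. On chromosome 2 the 5 windows from 85000001 to 90000000, which hold a large olfactory receptor cluster, had 12, 9, 21, 13 and 19 intervals, so 1 of 5 was interval-poor. Their median heights were 8.57, 16.6, 21.6, 13.5 and 17.5, all below the autosomal median. In the vomeronasal receptor blocks of chromosome 7, the window from 8000001 to 9000000 held 6 intervals, none above a height of 7. The window from 22000001 to 23000000 held 9, none above 16.7. Both were low throughout, like the windows at Lsamp and Erbb4 and unlike those at Opcml and Csmd1. In each, a single run without a listed interval took up most of the window, 842.5 and 810.6 kb.

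The median count rose gradually with distance from interval-poor windows. The median count was 18 in the window 1 Mb before and 16 in the window 1 Mb after. It was 21 and 20 at 2 Mb, and 26 and 25 at 3 Mb. Around windows with 20 to 39 intervals it was 26 at each of these distances. The median was thus still low at 1 and 2 Mb and near that of the comparison windows at 3 Mb. A window picked for a low count is expected to have fuller neighbours, so this profile is a description.

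**Figure D2:**
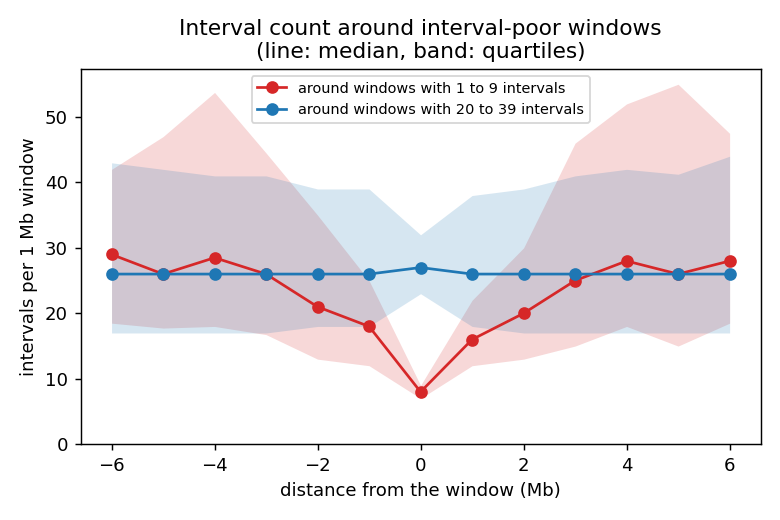
Median count of intervals per 1 Mb window (y axis) against distance in Mb from the chosen window (x axis), with quartiles as bands, for interval-poor windows (red) and windows with 20 to 39 intervals (blue). The red median rises from 8 at the window to 18 and 16 next to it, and to 26 and 25 at 3 Mb.

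Of the 97 windows, 68 had a neighbour with 10 to 19 intervals. In 36 both neighbours held fewer than 20, and 61 had a neighbour with 20 or more. In 13 a neighbour held 40 or more. Of all windows with any interval, 26.6% held 10 to 19, 36.7% held 20 to 39, 19.8% held 40 to 79 and 12.9% held 80 or more. Neighbours were not counted in this way around other windows, so the neighbour counts are described only. The steepest step was on chromosome 1, where the window from 76000001 to 77000000 held 8 intervals beside one with 108. Intervals in windows with both neighbours under 20 had a median height of 14.9 (95% order-statistic interval 12.6 to 17.0), and the others had 17.6 (15.3 to 19.1). These ranges overlap, so a difference by surroundings was not resolved.

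When windows with fewer than 20 intervals, empty ones included, were joined, 340 runs formed, and 77 of them held an interval-poor window. Those 77 had a median length of 3 windows, and the longest had 10. The other 263 had a median of 1 window and a longest of 11. A longer run has more chances to hold a sparse window, so the lengths of both kinds are given only to describe them. One run of 10 windows, on chromosome 2 from 39000001 to 49000000, lay around the lipoprotein receptor gene Lrp1b and held 128 intervals, with 1 interval-poor window. The other, on chromosome 14 from 108000001 to 118000000, includes Slitrk1, a gene of neurite growth, and held 126 intervals, with 2 interval-poor windows. These 2 runs were thus made mostly of windows with 10 to 19 intervals. A run of 9 windows on chromosome 7 from 39000001 to 48000000 differed, with 27 intervals, 6 empty windows and 2 interval-poor ones.

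Intervals in sparse megabases were lower. Their median height was 16.5 (95% order-statistic interval 14.96 to 17.8, 722 intervals), against 28.3 (28.1 to 28.6, 24797 intervals) in the 887 windows with 20 to 39 intervals. The ratio was 0.583 (0.523 to 0.634, from the bounds of both medians). These ranges cover counting error only and treat intervals of 1 library as independent. Against windows with 10 to 19 intervals, whose median was 19.8, the ratio was 0.837, so most of the gap lay above that class. Beyond the comparison class the median kept rising, to 35.0 in windows with 40 to 79 intervals and 39.6 in windows with 80 or more.

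The limit of 9 did not mark a step in height. The 29 windows with 9 intervals had a median height of 15.7 (13.4 to 18.3), and the 38 windows with 10 had 16.1 (13.8 to 18.2). At the lower limit, 1 window held a single interval, with a height of 24.8, and 9 windows held none. The window with 1 is where the list of chromosome 9 ends, so its count may be low because the chromosome ends there.

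**Figure D3:**
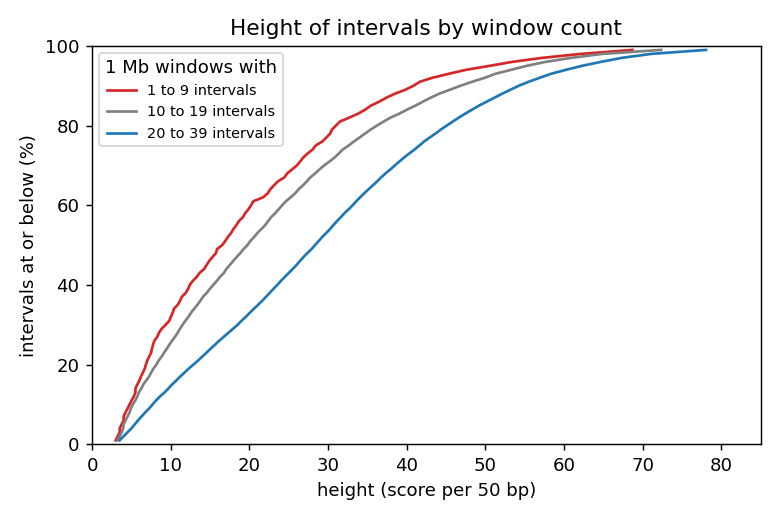
Percent of intervals (y axis) at or below a given height in score per 50 bp (x axis), from the 1st to the 99th percentile, for windows with 1 to 9, 10 to 19 and 20 to 39 intervals. The curve for interval-poor windows lies to the left throughout, with medians of 16.5, 19.8 and 28.3.

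Intervals in sparse megabases were lower at each percentile of height from the 1st to the 99th. The lower quartile of height was 7.75 in interval-poor windows and 15.6 in the comparison windows (ratio 0.496, difference 7.88). The upper quartile was 28.4 against 41.6 (ratio 0.683, difference 13.2). For the 95th percentile the values were 50.5 and 62.3 (ratio 0.811, difference 11.8). Towards the top the ratio thus came nearer to 1, while the difference in height did not shrink below that at the lower quartile. Heights of at least 34.4, the autosomal median, were reached by 119 of 722 (16.5%, 95% Clopper-Pearson interval 13.8 to 19.4%), against 37.4% (36.8 to 38.0%) in the comparison windows. Heights below 10 were found for 232 (32.1%, 28.7 to 35.7%), against 14.7% (14.3 to 15.1%).

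The lower height was present on 18 of 19 autosomes. On those 18 the median in interval-poor windows ran from 10.5 on chromosome 19 to 22.8 on chromosome 17. In the comparison windows of all 19 autosomes it ran from 25.5 to 30.9. The ranges were apart for those 18, which were picked as lower, and overlap once chromosome 13 is added. The ratio within an autosome was lowest on chromosome 18 (0.342, 16 intervals) and its median over the 19 was 0.584. The exception was chromosome 13, with 35.4 against 28.6. Its value came from the 9 intervals of 1 window, from 120000001 to 121000000, in which the listed intervals of that chromosome end. If the chromosome ends inside this window too, its low count may come from its length. The value is therefore not read as that of a sparse megabase.

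**Figure D4:**
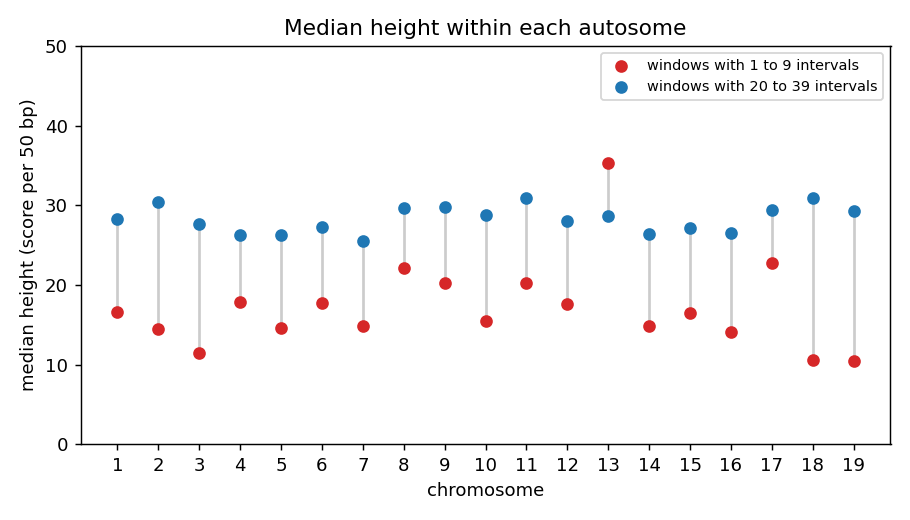
Median height in score per 50 bp (y axis) for each autosome (x axis) in interval-poor windows (red) and in windows with 20 to 39 intervals (blue), joined by a line. Red lies below blue on 18 of 19 autosomes, and chromosome 13, with 9 intervals in 1 interval-poor window at the end of its list, goes the other way.

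Width differed much less than height. The median was 200 bp in both classes, where widths come in steps of 50 bp, and the mean was 244 bp ± 151 (SD, 722 intervals) against 269 bp ± 184 (SD, 24797 intervals). The mean was lower in interval-poor windows on 16 of 19 autosomes and higher on chromosomes 5, 13 and 15. The means differed by 25.2 bp. Widths of 500 bp or more were found for 54 intervals (7.48%, 5.67 to 9.65%), against 10.5% (10.2 to 10.9%). Intervals of 100 bp, the narrowest in these windows, made up 19.9% (17.1 to 23.0%), against 15.5% (15.1 to 16%).

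The lower height was also present among intervals of 1 width. At 100 bp the median height was 6.94 (5.5 to 8.5, 144 intervals) against 19 (18.4 to 19.8), a ratio of 0.365 and a difference of 12.1. At 150 bp it was 10.1 against 24.1, a ratio of 0.420. From 200 to 300 bp the ratio was 0.642 to 0.672. At 500 bp or more it was 0.585, with medians of 27.9 (18.9 to 44.4, over only 54 intervals) and 47.6 and a difference of 19.8. The ratio was thus lowest for the narrowest intervals and the difference largest for the widest.

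Counted per window, low intervals varied far less between sparse and dense megabases than high ones did. Interval-poor windows held a mean of 2.39 intervals with a height below 10, windows with 10 to 19 held 3.75, those with 20 to 39 held 4.11 and those with 40 to 79 held 3.42. Windows with 80 or more held 2.84. Intervals of at least the autosomal median height numbered 1.23, 3.29, 10.4, 28.3 and 82.5 per window in the same order. Against windows with 20 to 39, the comparison class, low intervals were 1.72-fold and high ones 8.52-fold fewer in interval-poor windows. From the sparsest to the densest class the mean number of all intervals rose 17.4-fold, that of low intervals 1.19-fold and that of high intervals 67.2-fold. The total per window is what the rule fixed, so only the mix of heights within it is free to differ. Whether the low intervals reflect TCF1 binding was not tested.

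**Figure D5:**
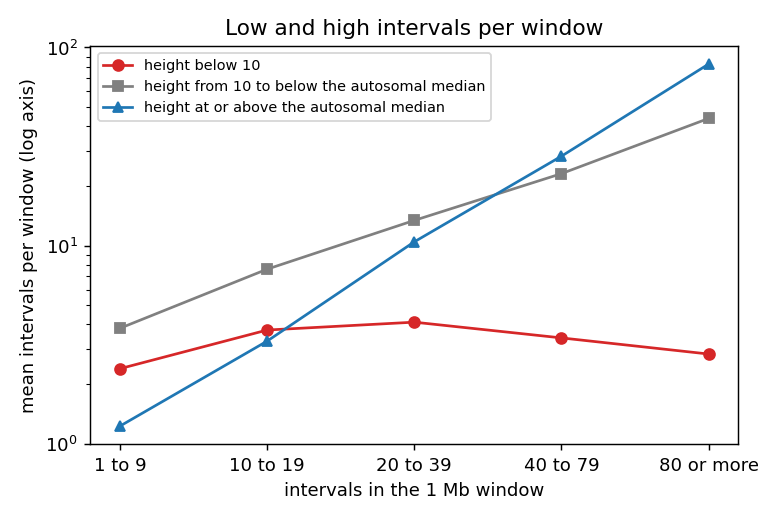
Mean number of intervals per 1 Mb window (y axis, log scale) by the total in the window (x axis), split into heights below 10, from 10 to below the autosomal median of 34.4, and at or above it. Low intervals lie between 2.39 and 4.11 per window, while high ones go from 1.23 to 82.5.

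No interval reached the autosomal median height in 30 of the 97 windows. The highest interval of a window had a median height of 41.1, so many sparse megabases still held at least 1 interval of ordinary height. A window with few intervals has few chances to hold a high one, so both values are tied to the count that the rule used. In 5 of the 97 windows (5.15%) the window's own median reached the autosomal median, against 18.9% of the 887 comparison windows. Window medians ran from 3.50, on chromosome 7 from 8000001 to 9000000, to 108, on chromosome 8 from 20000001 to 21000000.

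Intervals in sparse megabases were also isolated from each other. The median distance to the nearest listed interval was 40.15 kb (36.05 to 42.8), against 8.70 kb (8.50 to 8.90) in windows with 20 to 39, a measure tied to the count that the rule used. Another interval lay within 10 kb for 136 of 722 (18.8%, 16.05 to 21.9%). Their median height was 15.4 (12.8 to 19.2), and it was 14.96 (12.9 to 18.1) for the 287 with no other within 50 kb, so the ranges overlap. In the comparison windows intervals with a near neighbour were the higher ones, with 30.4 (30.0 to 30.8) against 23.5 (22.4 to 24.4). Among intervals over 50 kb from any other, the median height was 14.96 in sparse megabases (287 intervals) against 23.5 in the comparison windows (1716 intervals). Distances beyond 50 kb were not matched between the classes, and whether spacing is related to the lower height was not tested.

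A few intervals in these windows were very high. The top one lay on chromosome 8 from 20019551 to 20020450. Its height was 260, or 7.56 times the autosomal median, and its width 900 bp. It shared its window with 2 others, one of which, from 20032251 to 20032550, was the third highest of the 722, at 108. This window lies in the defensin region, a cluster of genes for antimicrobial peptides with many similar copies, and the window after it was empty. The second highest, on chromosome 5 from 26333401 to 26334050, had a height of 174 and followed 952 kb without a listed interval. These were the only 2 of the 722 above a height of 132.8, a limit passed by 105 of the 104683 intervals of the whole list. Their share was 0.277% (0.0336 to 0.997%), against 0.141% (0.0983 to 0.196%) in windows with 20 to 39 intervals, so the ranges overlap. The fourth highest was on chromosome 13 from 120276851 to 120277100, with a height of 104, in the window in which the list of that chromosome ends. The fifth, with 92.7, was only 100 bp wide and lay from 91667501 to 91667600 of chromosome 10.

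Of the 5 widest intervals, 1 was also among the 5 highest. The widest, 1300 bp, was in the same end window of chromosome 13, from 120217151 to 120218450, with a height of 44.4. The next, 1150 bp, was the high interval at Ccser1 on chromosome 6 from 61129951 to 61131100, with 53.9. Another of 950 bp lay on chromosome 6 from 21801451 to 21802400, with 52.3. One of 900 bp lay on chromosome 7 from 145588851 to 145589750, with 51.8, and it equalled in width the highest interval on chromosome 8. Only 2 of the 722 were 1000 bp or wider (0.277%, 0.0336 to 0.997%), against 1.04% (0.922 to 1.18%) in the comparison windows.

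Some sparse windows bordered regions with no listed interval at all. The longest empty gap on the autosomes, 7.22 Mb on chromosome 7 from 39274601 to 46495250, began inside an interval-poor window of 6 intervals. The second, 2.11 Mb on chromosome 8 from 20032551 to 22143700, began in the window of the defensin region. Of the 25 longest gaps, 15 overlapped an interval-poor window. A long gap lowers the count by which the windows were chosen, so gaps in them are described only. In 16 of the 97 windows a single run without a listed interval took up at least 500 kb, counted to the edge of the window. Among the 16 were the windows in which the lists of chromosomes 9, 12, 13 and 14 end. Their runs, from 722.9 to 996.1 kb, may lie partly past the end of the chromosome, which was not checked. In 7 the neighbouring window was empty or the list of the chromosome ended. The 42 intervals of these 7 windows had a median height of 27.6 (17.4 to 35.4), against 15.9 (14.5 to 17.6) for the 680 of the other 90. The pooled median was thus higher at borders, but the medians of the 7 windows differed widely. They ran from 12.1, on chromosome 2 from 176000001 to 177000000, to 108 in the window of the defensin region. Without these 7 windows the ratio to the comparison windows was 0.561. Whether gaps of the mm9 assembly fall in these places was not tested.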

How the data were processed

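One list for the TCF1 library was used, as deposited by the authors. Each row has a position and a score, and the submitters' processing notes name mm9 as the build. How reads were aligned, how intervals were called and what the score means is not given in the sources used here. Per the labels' protocols, 1000000 sorted cells were crosslinked and the library was amplified for 17 cycles. Starts and ends were read as inclusive and are printed counted from 1. Stretches are neighbouring interval-poor windows on 1 chromosome. The 10 longest are named (ties by fewer intervals, then by chromosome and start), with the 5 highest and 5 widest intervals and the highest in each of the 5 longest stretches. Genes are named only where their mm9 place is well known, without gene coordinates. The planned comparison of the edges and inside of stretches of 5 or more windows was not possible, since none was that long. The members and lists were chosen with earlier results of these data known. No test was made, and intervals (95%) cover counting error only. The measures were checked on simulated windows. Alternatives are in the closing section. Software was matplotlib 3.10.9, scipy 1.17.1, pandas 2.3.3 and numpy 2.4.6 in Python 3.11.15.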

Additional observations from a re-analysis of the deposited data

How the results depend on the processing

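Among 73 values under other settings, 27 moved, 46 were close to the value reported and 0 were reversed. Only the 23 height ratios could be labelled reversed, since counts have no direction and the reported width ratio was 1. Close meant within 1.5 times for counts, inside the range given above for the height ratio, and within a 50 bp step for the width ratio. The height ratio ran from 0.365 to 0.837 over 23 alternatives. With 500 kb windows of 1 to 4 intervals there were 343 windows, 1092 intervals, 54 stretches of at least 2 windows, a longest of 4 and a height ratio of 0.656. With 2 Mb windows of 1 to 19 there were 31 windows and 1 such stretch. With an upper limit of 4 there were 5 windows with 14 intervals, 0 stretches, a longest of 1 and a ratio of 0.489. Keeping the upper 50% by score, with the same limits for a list of fewer intervals, gave 956 windows, 4910 intervals, 198 stretches, a longest of 18 and a ratio of 0.806. Joining intervals within 1 kb gave 21 stretches, and bridging 1 window gave a longest of 4. The height ratio was 0.837 against windows with 10 to 19 and 0.436 against those with 40 or more. By width it was 0.365 at 100 bp, 0.420 at 150 bp, 0.642 at 200 bp, 0.672 at 250 bp, 0.670 at 300 bp and 0.665 at 350 to 450 bp. The ratio of median widths, 1 as reported, was 0.8 after joining within 1 kb, 1.125 with the upper limit of 4 and 1.17 in the upper 50% by score, so it lay on both sides of 1. Leaving out each autosome in turn gave 0.572 to 0.594. The splits by width other than 200 bp and the removal of windows at borders were chosen after the data were seen. No paired analysis was possible because the ChIP library has no replicate and no input values were used. The unknown read depth limits what can be said of low intervals, and a window with few intervals does not show that TCF1 was absent.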
